A study of Mus musculus with 7 samples.

Results

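The Hox cluster genes are the protein-coding genes of the RefSeq table for GRCm38.p6 whose symbols begin with Hoxa, Hoxb, Hoxc or Hoxd. They were chosen by symbol alone, and 39 of 21887 protein-coding genes met the rule: 11 in HoxA, 10 in HoxB, 9 in HoxC and 9 in HoxD. Around them, peaks of the transcription factors LEF1 and TCF1 were counted within 10 kb of each gene and over each cluster with 100 kb on both sides.

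Hox genes encode homeodomain transcription factors that set positional identity along the body axis, and they lie in 4 clusters in which gene order follows the order of expression from head to tail. In differentiated cells that do not use them, the clusters are classic targets of Polycomb repression. In blood, members of HoxA and HoxB are active in stem and progenitor cells and are turned down as cells mature, so in a naive T cell most of the family is largely silent. LEF1 and its relative TCF1, which is the product of the gene Tcf7, are HMG-box factors of the T lineage that recognise sequences built on the letters CTTTG.

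CUT&RUN, in which an antibody guides a nuclease to cut DNA around its target, was run on fixed wild-type CD8 T cells from mouse spleen that carried the transgenic P14 T cell receptor. All antibody libraries came from cells sorted as CD8+, Ly5.1+, CD44- and CD62L+, a gate for naive cells, with no treatment named: 3 libraries used an antibody to LEF1 and 3 an antibody to TCF1. Age, sex and number of animals are not given in the labels, nor whether replicates are separate animals, so spread between libraries may be technical. The labels also name 1 no-antibody input control, sorted by another gate (CD8+, Ly5.1-, CD44+), for which no values were analysed here, so no background from it stands beside the peaks.

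The 6 lists held 11423 to 37646 peaks, and read totals were not given. The lengths at both ends bear on the results below: TCF1 replicate 3 had the shortest list, and LEF1 replicate 2 the longest. Beside the T cell label stand 11 T cell marker genes, among them Cd3e, Cd8a and Bcl11b, which all had a region held by each factor within 10 kb. The same was so of 3 of 6 B cell markers (50%) and 2 of 6 myeloid markers (33.3%), where 52.6% of all protein-coding genes had a LEF1-held and 49.8% a TCF1-held region. These lists were chosen with earlier results of these data known, so they describe the peaks and do not test the label. Peaks show where a factor was found and not whether a gene is expressed.

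Hox genes carried few reproducible peaks. A region, meaning an interval merged over the 6 libraries, was taken as held by a factor when at least 2 of its 3 libraries had a peak there. A LEF1-held region lay within 10 kb of 4 of the 39 Hox genes, 10.3%, against 52.6% of all protein-coding genes. The 4 were Hoxb7, Hoxb8, Hoxb9 and Hoxd3. Of these, 2 remained when LEF1 replicate 2 or LEF1 replicate 3 was left out. A TCF1-held region lay near 1 Hox gene, Hoxd3, or 2.56%, against 49.8% of all genes. Hoxd3 was also the 1 Hox gene with a region found in all 6 libraries, where 33.8% of all genes had such a region. The median Hox gene had 0 regions of any kind, and the median protein-coding gene had 1 LEF1-held and 0 TCF1-held regions.

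Hox genes are short and crowd together, which limits how many peaks can touch 1 gene and makes neighbours share them. Their median length was 3.74 kb, against 17.2 kb over all protein-coding genes. Of genes no longer than 5 kb, 29.5% of 5034 had a LEF1-held region and 27.2% a TCF1-held region within 10 kb. Of the 24 Hox genes of that length, 4.17% had a LEF1-held and 0% a TCF1-held region. A peak of any library, in contrast, was near 37.5% of these Hox genes and 34.0% of all genes of that length. The absence of a peak from a list says that the authors' caller did not report it, not that the factor was absent.

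The libraries differed widely at Hox genes. Within 10 kb, LEF1 replicate 1 had a peak at 2 of the 39 genes, where 52.0% of all protein-coding genes had one in that library. LEF1 replicate 2 had a peak at 17, where 58.4% of all genes had one. LEF1 replicate 3 had a peak at 4, beside 48.8% of all genes. TCF1 replicates 1, 2 and 3 had a peak at 1, 4 and 1 Hox genes, beside 53.3%, 50.9% and 34.2% of all genes. LEF1 replicate 2 was thus the highest by far, and LEF1 replicates 1 and 3 lay within the range of the TCF1 libraries. Peaks of any library reached 17 Hox genes, 43.6%, against 59.4% of all genes, and every one of the 17 had a peak of LEF1 replicate 2. The other 5 libraries together reached 6 Hox genes: Hoxb3, Hoxb4, Hoxb7, Hoxb8, Hoxb9 and Hoxd3. Of genes with any peak, LEF1 replicate 2 was thus the only library at 64.7% of Hox genes. Over all protein-coding genes with any peak that share was 5.72%.

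**Figure D1:**
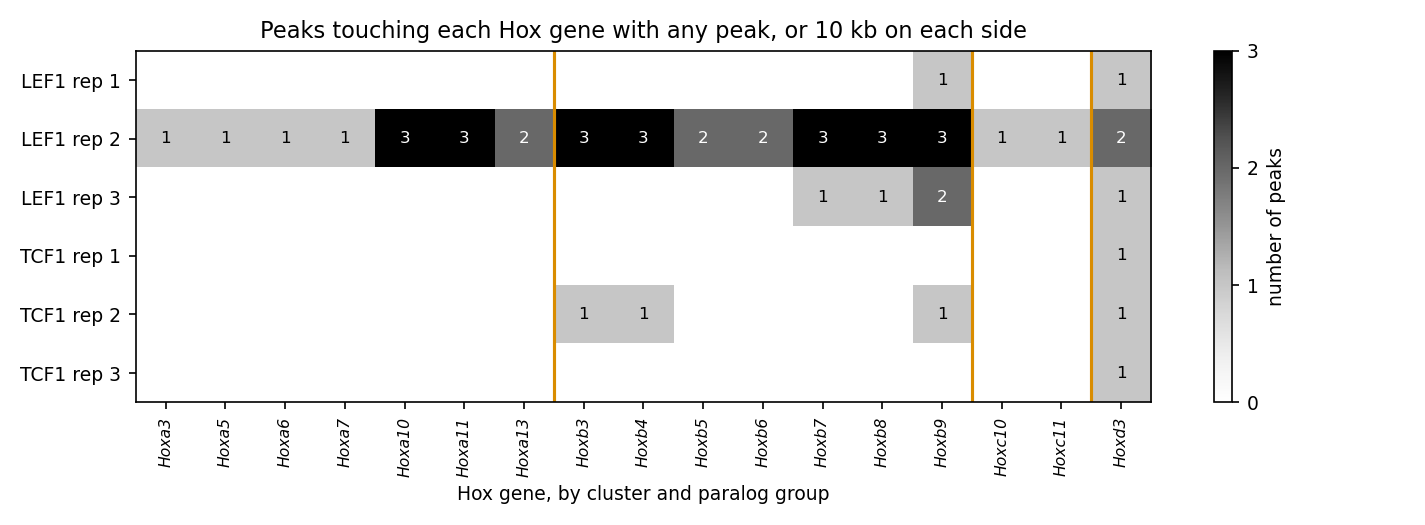
Number of peaks (grey scale and digits) touching each of the 17 Hox genes with any peak, or 10 kb on each side, by library (rows) and gene (columns, ordered by cluster and paralog group, orange lines between clusters). LEF1 replicate 2 fills all 17 columns, the other libraries 1 to 4, and Hoxd3 is the only column filled in all 6 rows.

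The most reproducible site inside any cluster lay in HoxD, just beyond Hoxd3. Hoxd3 is a gene of paralog group 3 known for its part in forming the upper neck vertebrae. The region spanned chromosome 2, 74749274 to 74749724, 1.00 kb past the annotated end of Hoxd3 and inside the noncoding gene Haglr, which lies between Hoxd3 and Hoxd1. Its fold enrichment, the authors' ratio of signal to expected background, was 22.0, 31.0 and 13.9 in LEF1 replicates 1 to 3 and 15.3, 13.4 and 7.76 in TCF1 replicates 1 to 3. All 6 libraries had the peak, and their summits fell within 21 bp of each other. Its rank by fold enrichment within each list ran from percentile 14.2 to 66.5, where 0 is the strongest peak, with a median of 34.4. A second region, at 74748188 to 74748434, touched the end of Hoxd3 itself and was found in LEF1 replicate 2 alone, at a fold of 8.76.

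The other 8 HoxD genes had no peak within 10 kb in any library. They are the anterior and central genes Hoxd1, Hoxd4 and Hoxd8 and the posterior genes Hoxd9 to Hoxd13, which pattern limbs and the tail end of the trunk. From the end of a region at the neighbouring gene Lnpk to the start of the region beside Hoxd3 lay 170.1 kb with no region held by either factor, and they contain 8 of the 9 HoxD genes, Hoxd3 among them and Hoxd1 not. Of 27380 stretches between neighbouring LEF1-held regions in the genome, 8.61% were as long or longer, and the median was 13.5 kb. The stretch was picked for holding the most Hox genes of its cluster, and long stretches cover more of the genome than short ones. This share therefore does not tell how unusual the stretch is.

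The HoxD promoters include letters of the kind LEF1 and TCF1 recognise, which is why 2 of them are shown. Sequences are RefSeq promoter windows of GRCm38.p6, printed 5′ to 3′ on the gene's strand up to the base before the annotated start, with motif letters in capitals. The motifs searched on both strands were CTTTGAT, a form that ends otherwise, CTTTGAA, and as the last form CTTTGTT. They differ in their last letters, so no site matches more than 1 of them. Hoxd8 is at chr2:74704365-74704614, plus strand, and Hoxd12 at chr2:74674763-74675012, plus strand.
Hoxd8: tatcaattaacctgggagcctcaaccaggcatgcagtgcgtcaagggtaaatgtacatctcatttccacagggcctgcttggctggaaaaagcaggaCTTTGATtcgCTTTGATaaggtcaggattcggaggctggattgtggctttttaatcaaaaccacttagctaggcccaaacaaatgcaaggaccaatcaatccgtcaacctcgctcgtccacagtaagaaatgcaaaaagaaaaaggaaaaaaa
Hoxd12: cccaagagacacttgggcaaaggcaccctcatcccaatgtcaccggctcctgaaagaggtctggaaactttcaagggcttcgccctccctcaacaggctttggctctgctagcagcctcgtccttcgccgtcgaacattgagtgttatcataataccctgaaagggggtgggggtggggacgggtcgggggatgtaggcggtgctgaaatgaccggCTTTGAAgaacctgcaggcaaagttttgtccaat
The Hoxd8 sequence holds CTTTGAT in 2 copies, the first of them 153 bp before the start. The window goes on for 50 bases past the start, which are not shown. Of 21263 protein-coding promoter windows, 0.0941% hold CTTTGAT 2 or more times, counting both strands. The Hoxd8 window was picked because motifs were found in it, so this share does not tell how unusual it is. Hoxd12, a posterior gene active in developing limbs, holds CTTTGAA beginning 34 bp before its start. Neither sequence was touched by a peak in any of the 6 libraries. The Hoxd4 window also holds a motif, CTTTGTT, which begins 15 bp past the start and so is not printed. No library had a peak over it.

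HoxB, the longest cluster at 173939 bp, held 7 regions, the most of any cluster, beside 5 in the 105514 bp of HoxA. All regions inside HoxB ranked in the weaker part of each list that held them. The region with the widest support lay in the long interval between Hoxb13 and Hoxb9, at chromosome 11, 96261511 to 96261725, inside the noncoding gene Gm53 and 9.61 kb from Hoxb9. It was listed in LEF1 replicates 1, 2 and 3 at folds of 6.35, 4.61 and 4.56, and in TCF1 replicate 2 at 4.92. TCF1 replicates 1 and 3 did not list it. The peaks ranked from percentile 82.4 to 97.1 in their lists, all in the weaker part. A second region, 0.366 kb from Hoxb8 at 96278738 to 96279035, was listed in LEF1 replicates 2 and 3 at folds of 8.14 and 5.64, with summits 4 bp apart, and in no TCF1 library.

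These 2 regions gave Hoxb7, Hoxb8 and Hoxb9 their LEF1-held regions. The 3 genes belong to paralog groups 7 to 9, and Hoxb9 had 2 such regions within 10 kb while Hoxb7 and Hoxb8 shared 1. Hoxb4, a gene known for promoting self-renewal of blood stem cells, had 3 peaks of LEF1 replicate 2 and 1 of TCF1 replicate 2 within 10 kb. One region touched the gene itself and also the long Hoxb3 that overlaps it (96318558 to 96318804), with a fold of 6.23 in LEF1 replicate 2 and 4.86 in TCF1 replicate 2. Hoxb3 had the same counts, 3 and 1. Hoxb5 and Hoxb6 each had 2 peaks of LEF1 replicate 2 and none of any other library. Hoxb1 and Hoxb2, the anterior genes that pattern the hindbrain, and Hoxb13, the most posterior gene of the cluster, had no peak within 10 kb. No region inside HoxB was held by TCF1, and the stretch free of TCF1-held regions ran for 364.9 kb and held all 10 genes. For LEF1 a stretch of 162.1 kb held 8 of the 10. Of such stretches in the genome 5.95% (TCF1) and 9.04% (LEF1) were as long, with the limit given for HoxD.

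In HoxA every peak inside the cluster came from LEF1 replicate 2. The 5 peaks had folds of 5.20 to 9.21, and they touched Hoxa3, Hoxa10 and Hoxa11 or lay between Hoxa11 and Hoxa13. The gene bodies and 10 kb on each side gave 3 peaks each for Hoxa10 and Hoxa11, 2 for Hoxa13, and 1 each for Hoxa3, Hoxa5, Hoxa6 and Hoxa7. Hoxa10 and Hoxa11 are posterior genes needed in the reproductive tract and limb, and Hoxa13 patterns the hand and genital region. Hoxa9, which drives progenitor growth in the marrow and is a known leukaemia gene, had no peak within 10 kb in any library. Hoxa2 and Hoxa4 had none either. No region held by a factor lay in the 523.8 kb that contain all 11 HoxA genes. Of stretches between LEF1-held regions 3.30% were as long, a share with the same limit as that for HoxD.

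The peak at Hoxa11 is the only peak that touched any of the 24 Hox promoter windows in the table, so its sequence is shown. It is the part of the peak that lies before the Hoxa11 start, chr6:52245811-52245975, minus strand.
Hoxa11: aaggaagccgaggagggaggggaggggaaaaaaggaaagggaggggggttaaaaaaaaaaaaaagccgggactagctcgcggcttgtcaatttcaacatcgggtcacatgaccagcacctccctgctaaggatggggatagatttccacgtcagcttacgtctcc
The fold there was 8.97 in LEF1 replicate 2, at percentile 63.0 of its list, and the other 5 libraries listed no peak. This part holds none of the 3 motifs on either strand, so it has no capitals. The whole window of Hoxa11 does hold 1 of them, CTTTGAA, past the start and outside the peak. The peak also touches the antisense gene Hoxa11os.

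HoxC was the emptiest cluster. With both flanks of 100 kb, its window held 1 peak of 1 library: LEF1 replicate 2, chromosome 15, 102966531 to 102966664, 0.132 kb from Hoxc10, at a fold of 8.05. Hoxc10 and Hoxc11, posterior genes of the hindlimb and lower trunk, were the 2 genes within 10 kb of it. Hoxc4, Hoxc5, Hoxc6, Hoxc8, Hoxc9, Hoxc12 and Hoxc13 had no peak in any list. The distance between the LEF1-held regions on either side was 420.3 kb and that between the TCF1-held regions 440.9 kb. Of such stretches in the genome 3.96% and 5.14% were as long, with the limit given for HoxD.

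By position along the body axis, no group of Hox genes stood out in all libraries. Peaks of any library were within 10 kb of 3 of 8 anterior genes (paralog groups 1 to 3), 8 of 15 central genes (groups 4 to 8) and 6 of 16 posterior genes (groups 9 to 13). LEF1 replicate 2 by itself gave the same counts. Of all protein-coding genes, 59.4% had a peak of any library. LEF1-held regions were near 1 anterior, 2 central and 1 posterior gene, beside 52.6% of all protein-coding genes. The difference between these groups was not tested, since neighbouring genes share peaks.

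**Figure D2:**
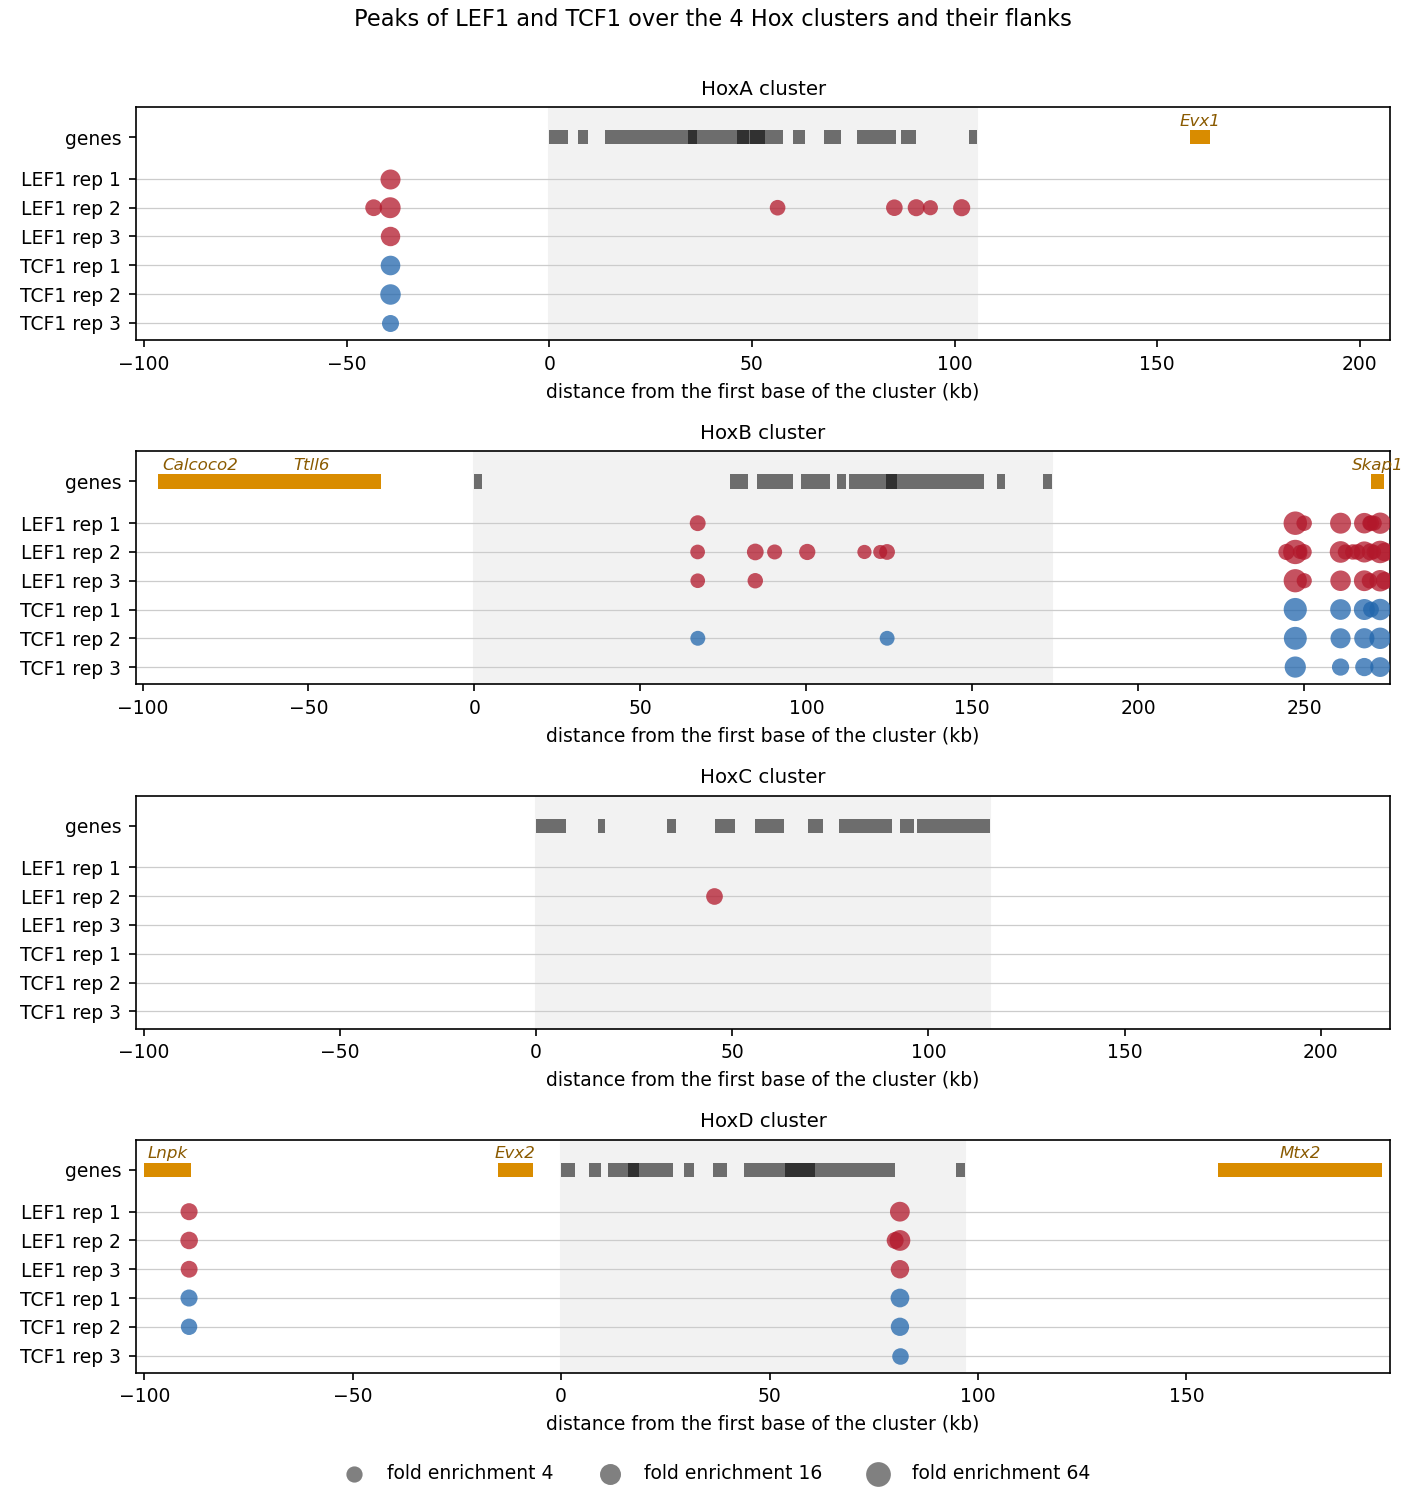
Peak summits of the 6 libraries (red, LEF1; blue, TCF1; point size grows with log2 fold enrichment) over each Hox cluster (grey band) and 100 kb on both sides, by distance from the first base of the cluster in kb. Dark grey boxes are Hox genes (black where they overlap) and orange boxes other protein-coding genes. Inside the clusters 1 column of points is complete, beside Hoxd3, while LEF1 replicate 2 has 15 points.

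The strongest sites lay in the flanks, mainly in 1 flank of HoxB. The flanks of HoxC held no region, and in HoxD the region beside Hoxd3 was stronger than that in the flank. Of the 16 flank peaks of LEF1 replicate 2, 10 ranked in the weaker part of its list. Of 17 regions in the flanks, 5 were in all 6 libraries, or 29.4%, near the 28.5% of all 38231 regions. A further 8 were in a single library (47.1%), against 23.1% of all regions. Of 15 regions inside the clusters, 1 was in all 6 (6.67%) and 11 were in a single library (73.3%). Inside the clusters 9 of the 15 regions touched a Hox gene body, 3 touched only a noncoding gene and 3 no annotated gene.

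Of the 5 flank regions of all 6 libraries, 4 lay in the flank of HoxB on the side of Skap1, 1 of them inside that gene. Skap1 encodes an adaptor protein that links the T cell receptor to integrin adhesion, and it lies beyond the Hoxb1 end of the cluster. The strongest region, at chromosome 11, 96441180 to 96442081, lay 72.9 kb from Hoxb1 and 22.5 kb from Skap1. Its folds were 90.0, 131.3 and 82.4 in LEF1 replicates 1 to 3 and 79.1, 71.9 and 36.9 in TCF1 replicates 1 to 3. These placed it between percentiles 0.308 and 2.85 of the lists, with summits within 17 bp. The others lay 9.01 and 1.77 kb from Skap1, both in the noncoding gene Gm11529, and inside Skap1, with folds of 9.53 to 43.5, 13.2 to 35.5 and 22.0 to 61.1. Over the whole of Skap1, 295053 bp long and reaching past the window, and 10 kb on each side, 13 regions were LEF1-held and 7 TCF1-held.

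The fifth such region lay in a flank of HoxA, at chromosome 6, 52115474 to 52116458. Its folds were 23.8, 33.4 and 19.6 in LEF1 replicates 1 to 3 and 20.8, 28.2 and 8.85 in TCF1 replicates 1 to 3. It ranked from percentile 12.4 to 55.8 in the lists, and the summits of all 6 fell within 28 bp. The nearest annotated gene, the noncoding Halr1, is known as Haunt from embryonic stem cells, where it acts on the HoxA genes. A LEF1 replicate 2 peak with a fold of 8.40 lay inside Halr1 itself.

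Of the other neighbours, Lnpk, a gene next to HoxD that encodes an endoplasmic reticulum protein, had 1 region in 5 libraries, at chromosome 2, 74578845 to 74579145. Its folds were 8.98, 10.5 and 8.48 in LEF1 replicates 1 to 3 and 9.01 and 7.43 in TCF1 replicates 1 and 2, and TCF1 replicate 3 did not list it. The homeobox genes Evx1 and Evx2, which stand at the posterior ends of HoxA and HoxD, and the genes Calcoco2, Ttll6 and Mtx2 had no peak within 10 kb. The Lnpk region is shown because peaks of 5 libraries touch a promoter window there, and no Hox window was touched in more than 1 library. The start used by that window lies inside the annotated Lnpk gene, which reaches to 74579458, and the peaks also touch the promoter window of the noncoding gene 4930445N08Rik on the other strand. The part under the peaks and before the Lnpk start used is at chr2:74578949-74579145, minus strand.
Lnpk: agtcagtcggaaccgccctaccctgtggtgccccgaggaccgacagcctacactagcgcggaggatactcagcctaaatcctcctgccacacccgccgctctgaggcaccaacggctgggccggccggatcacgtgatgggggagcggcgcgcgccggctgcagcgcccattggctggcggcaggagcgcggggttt
This part is 69.5% G and C with 21 CG dinucleotides, against 52.1% and 7 in the shorter Hoxa11 part. It too holds none of the 3 motifs.

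Promoter windows of 22 Hox genes were in the table, 24 windows in all, each 250 bases before to 50 after a start. None was touched by a LEF1-held or a TCF1-held region, where 29.2% and 29.5% of all 21263 protein-coding windows were. The windows covered every HoxD gene but only some genes of the other clusters, and Hoxb7, Hoxb9 and Hoxc10 had none. That of Hoxb8 uses a start inside the gene, away from the LEF1-held region 0.366 kb from Hoxb8. The result thus depends in part on which starts had a window. The Hox windows were about as rich in G and C as the rest (median 57.7% against 56.3%), with a median of 14.5 CG dinucleotides against 13. CTTTGAT was in 4.17% of Hox windows and 3.22% of all windows. The form CTTTGAA was in 8.33% and 4.54%, and the form CTTTGTT in 4.17% and 5.01%. At least 1 of the 3 was in 4 of the 24 (16.7%), against 12.1% of all windows. The letters GGGCGG, found in many promoters rich in CG, were in 41.7% of Hox windows and 46.2% of all. Over all windows, those with CTTTGAT were touched by a LEF1-held region in 29.7% of cases and those without it in 29.2%. For TCF1-held regions it was 27.5% with the motif and 29.5% without it.

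LEF1 replicate 2 stood apart inside the clusters. It had 15 peaks there, against 2, 3, 1, 3 and 1 in LEF1 replicates 1 and 3 and TCF1 replicates 1, 2 and 3. Per Mb that was 30.5, more than the 13.8 of the same library over all chromosomes. The other 5 libraries were all below their own averages, with 2.03 to 6.10 per Mb inside the clusters against 4.20 to 10.2 over all chromosomes. In the flanks the libraries had 6.25 to 20.0 per Mb, above their averages except in TCF1 replicates 1 and 2. Merged without LEF1 replicate 2, the clusters held 4 regions, or 8.13 per Mb, against 11.2 over all chromosomes.

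**Figure D3:**
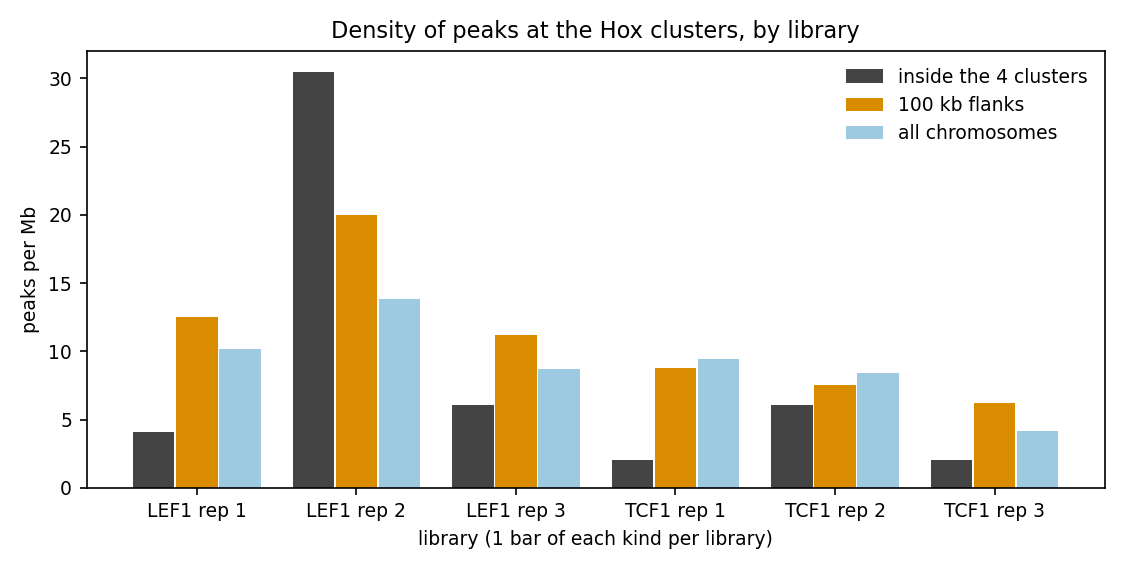
Peaks per Mb (bars from 0) inside the 4 Hox clusters, in their 100 kb flanks and over all chromosomes, by library. Inside the clusters LEF1 replicate 2 reaches 30.5 and the other libraries 2.03 to 6.10.

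Of the 15 peaks of LEF1 replicate 2 inside the clusters, 11 overlapped no peak of another library, or 73.3%, against 21.1% of all its peaks. In the flanks it was 7 of its 16 peaks, or 43.8%, so the share was above that library's overall share on both sides of the cluster borders. The 11 were weak, with folds of 3.89 to 9.21 and ranks in the weaker part of the list (percentiles 61.6 to 99.5). Such peaks were weak everywhere in this library: all 7936 of them had a median fold of 6.15, and 96.0% ranked below the middle of the list. In 11 Hox genes, 28.2%, LEF1 replicate 2 was the only library with a peak within 10 kb, where 3.40% of all protein-coding genes showed this. What sets this library apart at the Hox clusters was not tested.

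**Figure D4:**
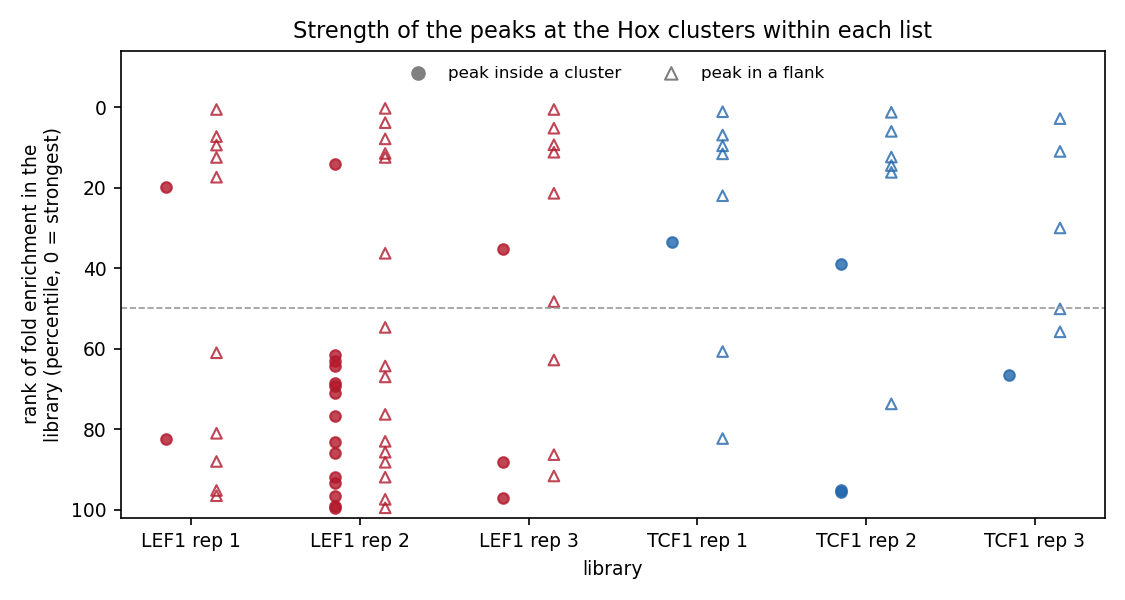
Rank of each peak by fold enrichment within its own library (percentile, 0 is the strongest, axis reversed) for peaks inside the clusters (filled circles) and in the flanks (open triangles). All 15 cluster peaks of LEF1 replicate 2 except 1 lie beyond percentile 50, and each library has flank peaks among its strongest.

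LEF1 and TCF1 were compared over the 3 libraries of each. The windows held 12, 31 and 12 peaks in LEF1 replicates 1 to 3 and 8, 9 and 6 in TCF1 replicates 1 to 3. The means were 18.3 ± 11.0 and 7.67 ± 1.53 (SD, n = 3), and every LEF1 library was above every TCF1 library (difference 10.7, exact permutation test, two-sided, p = 0.1, the smallest that 3 against 3 libraries allow). As a share of each list the windows took 0.0434%, 0.0823% and 0.0506% of LEF1 peaks and 0.0312%, 0.0393% and 0.0525% of TCF1 peaks. These ranges overlapped (difference 0.0178 percentage points, exact permutation test, two-sided, p = 0.3). The number of Hox genes with a peak, 7.67 ± 8.14 for LEF1 and 2.00 ± 1.73 for TCF1 (SD, n = 3), overlapped as well (difference 5.67, exact permutation test, two-sided, p = 0.3). Without LEF1 replicate 2 the differences were 4.33 peaks, 0.00598 percentage points and 1.00 gene.

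With lists of equal length the difference was 0. When each list was cut to its 11423 peaks of highest −log10 q, every library had 6 peaks in the windows, and these fell in the same 6 regions: the 4 on the Skap1 side of HoxB, that near Halr1 and that beside Hoxd3. At that length Hoxd3 was the only Hox gene with a peak, in each of the 6 libraries. In TCF1 replicate 3, whose list has that length uncut, 34.2% of all protein-coding genes had a peak within 10 kb. For the lists that were cut, this share is not given here.

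Genes that work with or control Hox genes were described in the same way. TALE homeodomain proteins bind DNA together with Hox proteins, and 5 of their 9 genes, 55.6%, had a region held by each factor, near the 52.6% (LEF1) and 49.8% (TCF1) of all protein-coding genes. These are long genes, with a median of 139.2 kb. Pbx2 led with 4 LEF1-held and 4 TCF1-held regions, followed by Pbx3 and Pknox1 with 2 and 1 each, while Meis1 and Meis2, partners of Hoxa9 in progenitors, had no peak. Of 23 Polycomb and trithorax genes, whose products silence or keep open the Hox clusters, 22 had a LEF1-held and 22 a TCF1-held region (95.7% each, beside the same 52.6% and 49.8% of all genes). Of 8 ParaHox and Evx genes, the sister genes of the Hox family, 1 did (12.5%, below those shares), Gsx2, with a region in all 6 libraries.

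Of 48 other developmental homeobox genes, 5 had a LEF1-held and 5 a TCF1-held region, among them Irx5, Lhx2 and Pax7. That is 10.4% for each factor, beside 10.3% (LEF1) and 2.56% (TCF1) of the Hox genes. Peaks of any library were near 7 of the 48, or 14.6%, where they were near 43.6% of the Hox genes. LEF1 replicate 2 was the only library with a peak at 1 of those 7 genes, Dlx1, against 11 of the 17 Hox genes with any peak. Among genes with any peak, it was also the only library at 1 of 2 ParaHox and Evx genes, Cdx2. The same was so of 2 of 5 B cell markers, and of none in the TALE, Polycomb and trithorax, T cell and myeloid lists. Over all protein-coding genes with any peak it was 744 of 13009 (5.72%). No test of the difference between these lists was made.

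**Figure D5:**
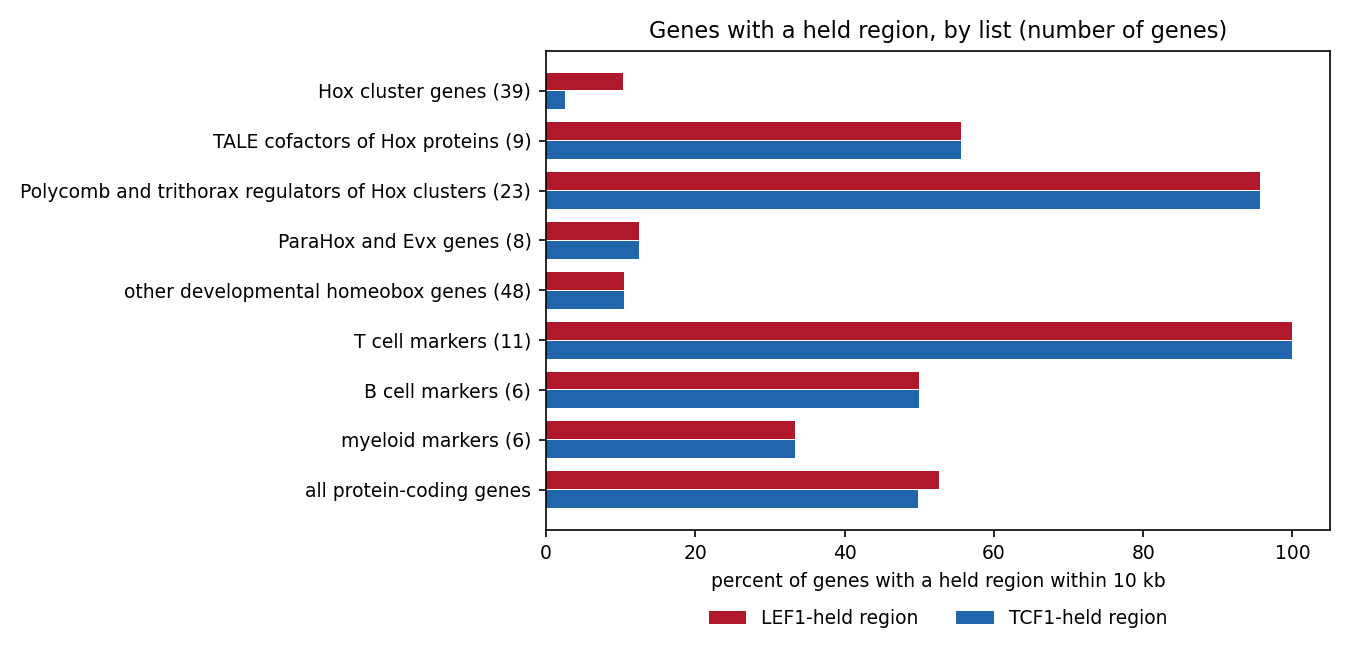
Percent of the genes of each list with a LEF1-held (red) or TCF1-held (blue) region within 10 kb, with the number of genes in brackets and all protein-coding genes at the bottom. Hox genes stand at 10.3% and 2.56%, the Polycomb and trithorax genes at 95.7% for both factors.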

How the data were processed

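Per the submitters' processing notes, the authors used Trim Galore 0.6.6, Bowtie2 2.4.4, Picard and MACS3 3.0.3 with genome build GRCm38.p6. For the options of the caller, the filters and the control the answer is the same: not given in the sources used here. Peak lists were deposited per library, and their peak names carry that library. Each peak has a fold enrichment (a ratio to expected background) deposited by the authors, and deposited −log10 p and −log10 q values. These were used only within a list.

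Analysis kept chromosomes 1 to 19 with X and Y, in 1-based coordinates. Regions were merged over libraries at an overlap of 1 bp or more. Gene positions and promoter sequences came from RefSeq tables of GRCm38.p6. Density used the span to the last gene or peak of each chromosome. Neither exons nor a genome sequence were used, so exons and introns were not told apart. Groups and replicate numbers came from sample titles. Group means were compared with exact permutation tests over 20 assignments. Python 3.11.15 with pandas 2.3.3 was used. Interval code was tested on simulated data, where 200 of 200 planted regions were recovered. By rule, all 39 Hox genes are counted (1 is not reported by name here), those with a peak within 10 kb are described, and regions of all 6 libraries in the windows are named with the nearest protein-coding gene. Each list was reduced to the shortest by −log10 q, then fold. The members and lists were chosen with earlier results of these data known. Alternatives were list length, q, flanks, summits, overlap, number of libraries and left-out libraries.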

Additional observations from a re-analysis of the deposited data

How the results depend on the processing

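With lists of equal length, all 3 differences between LEF1 and TCF1 became 0, the number of Hox genes with a LEF1-held region 1 and the number of regions in the windows 6, in place of 4 and 32. Requiring all 3 libraries gave 2 such genes, a −log10 q of at least 5 gave 1, and with no flank around genes there were 0 for either factor, in place of 4 for LEF1 and 1 for TCF1. Shares of all protein-coding genes with a held region under these settings are not given here, so the falls cannot be read as particular to Hox genes. With no flank, regions of any library touched 20.5% of Hox genes and 47.9% of all protein-coding genes. The windows held 15 regions with no flank around the clusters and 17 with 50 kb. Leaving out 1 library at a time, they held 15 (without LEF1 replicate 2) to 32 regions, and the number of genes with a LEF1-held region went from 2 (LEF1 replicate 2 or LEF1 replicate 3 left out) to 4. The window difference was 4.33 to 13.8 peaks and the gene difference 1.00 to 8.50, lowest without LEF1 replicate 2 for both. No alternative run turned a difference to TCF1. Taking the replicate number as a block, the paired window difference was 10.7 (exact sign flips, p = 0.25, the smallest 3 pairs allow). The permutation test without the block cannot go below 0.1, so neither test could make a call that the block might change. Whether the numbers pair the libraries is not known, and library names carry other numbers. Deviations of same-numbered libraries over all genes correlated at -0.0689, 0.179 and 0.35. LEF1 replicates 1 and 2 each correlated best with another number, and LEF1 replicate 3 with its own. Differences in list length could also bear on such correlations, so they cannot decide the pairing. Read totals were not given, so list length stood in for depth.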
